A study of Homo sapiens with 4 samples.

Results

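Peaks of 3 histone marks were examined at 10 human genes that work in the germline and are held silent in most somatic cells: SYCP1, SYCP2, SYCP3, DMC1, STAG3, TDRD1, DDX4, DAZL, MAEL and SOHLH1. They were chosen by name from 19974 protein-coding genes on chromosomes 1 to 22 and X. For each gene, every peak list was read over the gene record of the RefSeq annotation (GRCh38.p14) and the 10 kb either side of it. The cells were MCF10A, an immortalised, non-tumour-forming mammary epithelial line, grown in mammary epithelial medium with 100 ng/ml cholera toxin. ChIP-seq of 3 methylation marks of histone H3, named H3K4me3, H3K27me3 and H3K79me2, was done once per mark, and an input DNA library, not analysed here, completes the 4 samples. All samples share the line and the medium, and no treatment was compared. Expression was not measured, so silence is the known state of these genes in somatic cells and not a result here.

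Meiosis pairs homologous chromosomes along the synaptonemal complex while a germline recombinase repairs programmed breaks, and the PIWI-interacting RNA (piRNA) pathway keeps transposons in check in the same cells. In somatic cells many promoters of this programme are rich in CpG and are kept off by DNA methylation and by a variant Polycomb complex that binds through E2F6 and through the MGA and MAX pair. H3K4me3 marks active and poised promoters, H3K27me3 marks repression by Polycomb complex 2, and H3K79me2 follows transcription over the early part of genes.

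H3K4me3 and H3K27me3 were read in a window reaching 1000 bp to each side of a start site, and H3K79me2 in the first 5000 bp of the gene after it. A mark counted as present where its peaks took up 25% or more of that window. Starts came from the RefSeq promoter table, which held all 10 genes. With 1 library per mark there is no replicate check and no test, and read depth is unknown from peak lists. Counts are set beside the share of all protein-coding genes called at the same windows and threshold. Of these genes, 4162 had no start in the promoter table and were read at both record ends, the better covered end counting. The fold of a peak is the authors' value over the caller's background and ranks peaks only within its own list. Against the labelled cell type, of 7 basal epithelial genes 6 had H3K4me3 and H3K79me2, TP63 being without either at the start in the table. H3K4me3 was called at 2 of 5 luminal, 1 of 5 fibroblast and 0 of 3 immune genes.

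The upstream sequences come first, since the calls below are made around them. The spaces that 4 of the genes share with a neighbour read from the other strand are shown because H3K4me3 lay there. Capitals mark the E2F6 core TCCCGC, its longer form TTCCCGC or the E-box CACGTG that MGA and MAX bind, on either strand, and each sequence from RefSeq (GRCh38.p14) ends at the base before the start.
SYCP2, up to the FAM217B start, chr20:59933638-59933778, minus strand: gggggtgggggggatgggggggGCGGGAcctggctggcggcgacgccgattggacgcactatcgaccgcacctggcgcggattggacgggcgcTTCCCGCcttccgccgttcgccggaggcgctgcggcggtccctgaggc
MAEL, up to the ILDR2 start, chr1:166975541-166975581, plus strand: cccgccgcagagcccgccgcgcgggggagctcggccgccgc
DMC1, chr22:38570184-38570433, minus strand: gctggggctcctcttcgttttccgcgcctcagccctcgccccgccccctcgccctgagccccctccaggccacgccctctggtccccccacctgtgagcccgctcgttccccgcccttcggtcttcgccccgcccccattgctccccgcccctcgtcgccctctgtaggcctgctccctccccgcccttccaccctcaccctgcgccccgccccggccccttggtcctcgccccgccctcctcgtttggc
STAG3, chr7:100177474-100177723, plus strand: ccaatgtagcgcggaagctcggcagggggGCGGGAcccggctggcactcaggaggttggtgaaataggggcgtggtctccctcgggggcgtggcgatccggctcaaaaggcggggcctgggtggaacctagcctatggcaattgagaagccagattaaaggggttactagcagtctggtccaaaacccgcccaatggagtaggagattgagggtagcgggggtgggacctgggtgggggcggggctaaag
The next set is shown for contrast: SYCP1, whose start lay in H3K27me3, and the starts of SYCP3, DDX4, SOHLH1 and the inner start of MAEL, where no mark was called. The starts of TDRD1 and DAZL, also without a call, are not printed.
SYCP1, chr1:114854613-114854862, plus strand: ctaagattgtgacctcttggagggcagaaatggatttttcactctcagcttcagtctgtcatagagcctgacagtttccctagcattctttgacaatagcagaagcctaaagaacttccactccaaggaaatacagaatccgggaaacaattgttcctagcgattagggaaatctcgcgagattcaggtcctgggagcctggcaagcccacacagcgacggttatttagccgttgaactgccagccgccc
SYCP3, chr12:101739463-101739712, minus strand: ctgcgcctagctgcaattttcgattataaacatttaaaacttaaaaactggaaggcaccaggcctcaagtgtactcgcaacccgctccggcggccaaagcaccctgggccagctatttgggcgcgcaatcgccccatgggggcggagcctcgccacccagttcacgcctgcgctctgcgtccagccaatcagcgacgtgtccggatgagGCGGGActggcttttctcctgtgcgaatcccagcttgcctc
SOHLH1, chr9:135699482-135699731, minus strand: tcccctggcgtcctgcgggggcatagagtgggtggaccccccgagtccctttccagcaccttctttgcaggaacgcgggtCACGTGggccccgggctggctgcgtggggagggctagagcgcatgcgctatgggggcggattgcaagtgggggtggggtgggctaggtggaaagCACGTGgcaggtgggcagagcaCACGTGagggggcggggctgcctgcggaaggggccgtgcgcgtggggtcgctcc
MAEL, inner start, chr1:166989030-166989279, plus strand: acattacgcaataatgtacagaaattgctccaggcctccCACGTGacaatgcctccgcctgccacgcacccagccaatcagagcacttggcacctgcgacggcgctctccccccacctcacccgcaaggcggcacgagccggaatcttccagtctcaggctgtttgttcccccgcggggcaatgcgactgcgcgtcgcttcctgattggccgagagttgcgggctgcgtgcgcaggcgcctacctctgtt
DDX4, chr5:55766635-55766884, plus strand: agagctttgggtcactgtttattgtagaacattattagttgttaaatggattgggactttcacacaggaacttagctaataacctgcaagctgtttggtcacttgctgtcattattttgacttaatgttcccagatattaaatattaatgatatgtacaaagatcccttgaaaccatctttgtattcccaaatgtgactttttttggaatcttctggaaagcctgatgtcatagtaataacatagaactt

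Over windows of 300 bp (250 before to 50 after a start), the 14 windows of the 10 genes had a median of 26 CpG, against 21 over all 22132 windows of protein-coding genes. The outer start of MAEL had 60 CpG, a number reached by 0.104% of windows. SYCP2 had 41, DMC1 had 29, SYCP3 had 24 and SYCP1 had 15, while the DDX4 start in the table, which lies inside the gene record, had 1. TCCCGC was found in windows of 6 of the 10 genes, against 40.7% of all genes, and TTCCCGC, which contains it, in 3 (SYCP1, SYCP2 and STAG3), against 10.5%. In SYCP2 the longer form began 48 bp before the start, and in SYCP1 it began 37 bp after the start, outside the sequence printed. CACGTG was found in windows of 5 genes, TDRD1, STAG3, DAZL, MAEL and SOHLH1, against 10.9% of all genes, with 3 matches at SOHLH1. These are matches of letters and no binding was measured.

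At the starts, 4 of the 10 genes had H3K4me3 (SYCP2, DMC1, STAG3 and MAEL), against 68.6% of all protein-coding genes. H3K27me3 was called at 2, SYCP1 and MAEL, against 8.23%, and H3K79me2 at 0, against 52.0%. None of the marks was called at 5 genes, SYCP3, TDRD1, DDX4, DAZL and SOHLH1, against 26.7% of all genes. With peaks limited to q of 0.05 or below the counts were again 4, 2 and 0, where 67.3%, 5.20% and 44.6% of all genes were called. MAEL was the gene with H3K4me3 and H3K27me3 at 1 start. Both marks were called, at the same or at different starts, for 4.43% of all genes. The 2 calls of H3K27me3 were lost when peaks of fold 5 or more, or of −log10 q of 5 or more, were required.

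**Figure D1:**
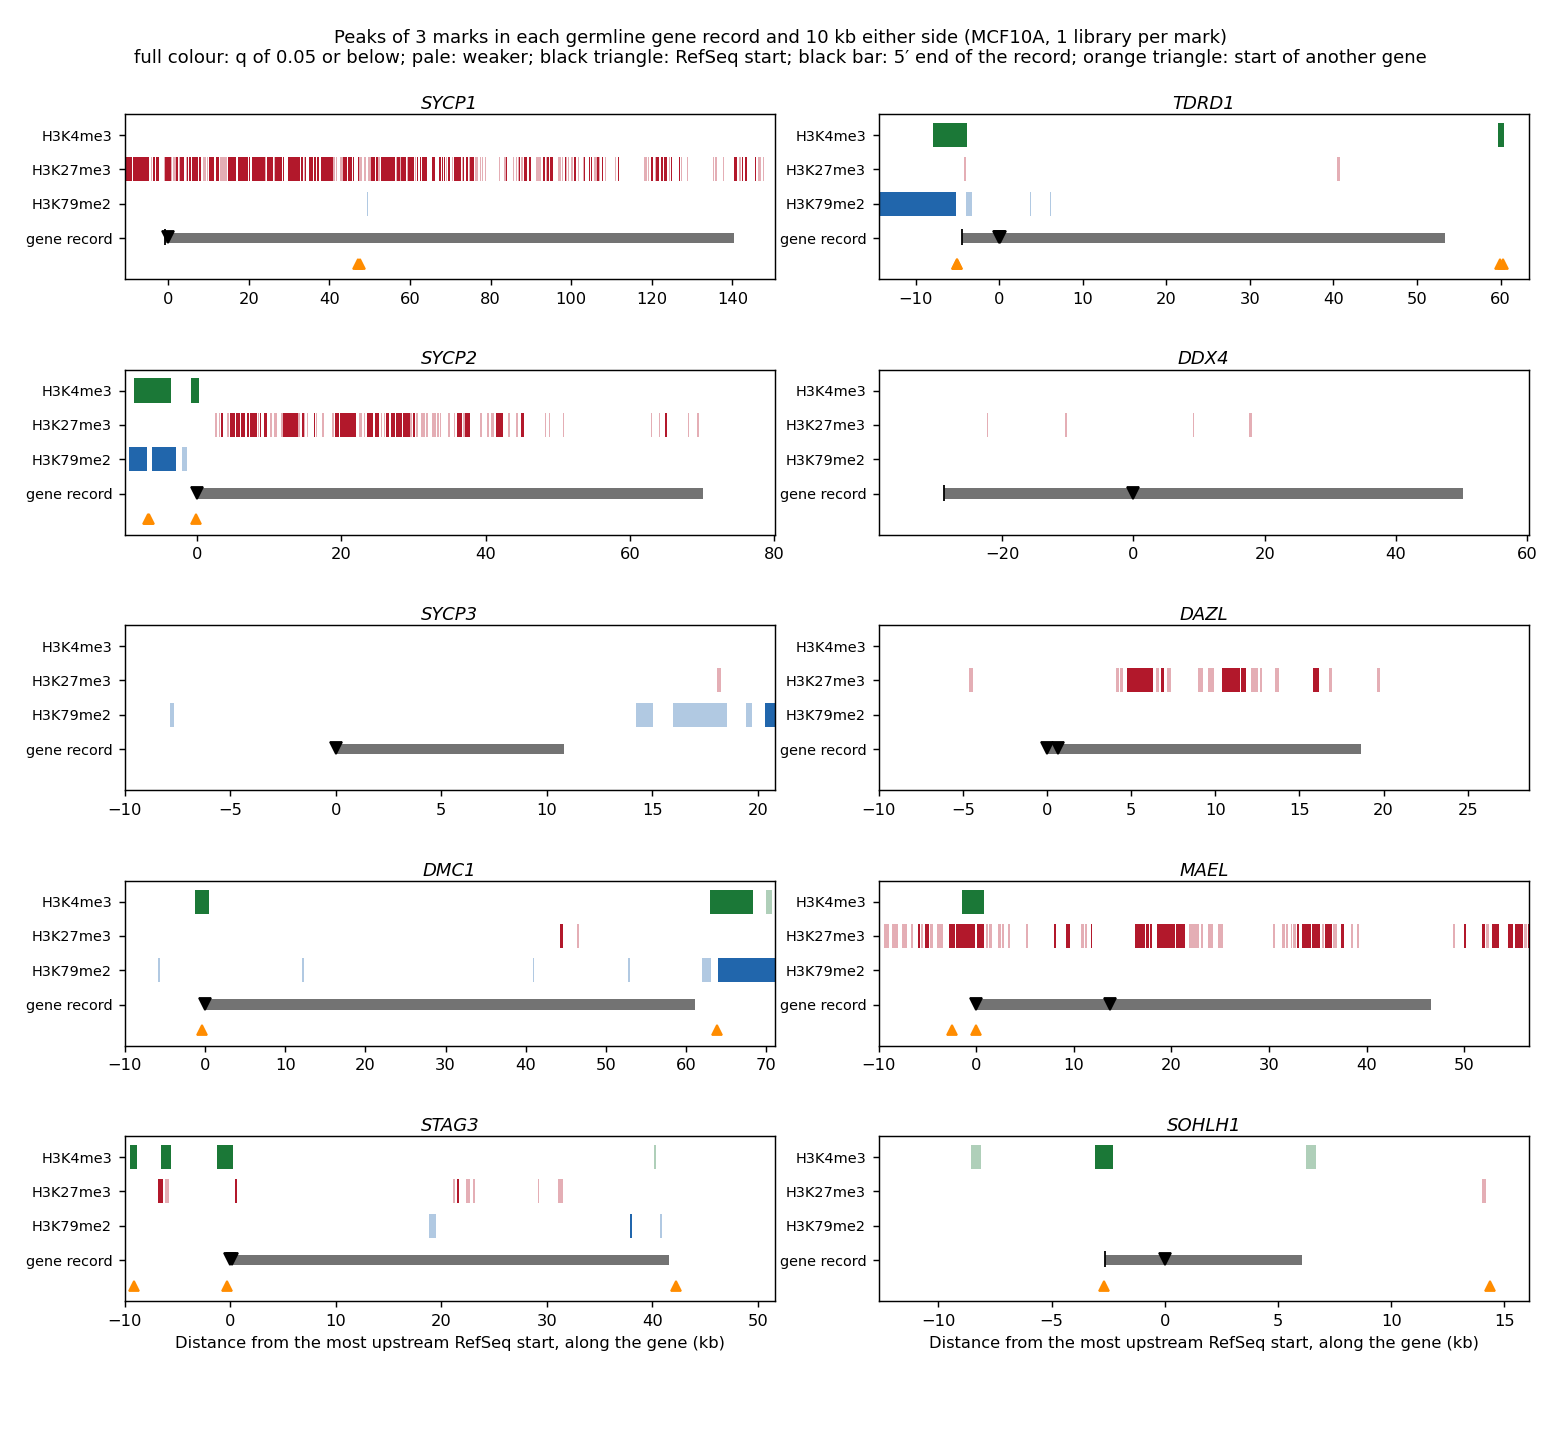
Peaks of H3K4me3 (green), H3K27me3 (red) and H3K79me2 (blue) over each gene record and 10 kb either side, by distance in kb from the most upstream RefSeq start; full colour is q of 0.05 or below, pale is weaker, black triangles are starts of the gene and orange triangles starts of other genes. H3K27me3 runs along SYCP1, SYCP2, DAZL and MAEL, the H3K4me3 peaks at the starts of SYCP2, DMC1, STAG3 and MAEL each hold an orange triangle, and DDX4 holds 4 pale H3K27me3 peaks.

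The 3 synaptonemal complex genes each had a different pattern. SYCP1 encodes the transverse filament that zips homologues together, and its record spans chr1:114854088-114995370. Its start window was covered to 84.1% by H3K27me3 and to 0% by H3K4me3 and H3K79me2. Over the record and flanks, 167 H3K27me3 peaks covered 51.7% of the sequence, and 94 of them had q of 0.05 or below. Cover as high was found at 0.285% of all protein-coding genes, whose median was 0.614%.

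With gaps of up to 3000 bp joined, H3K27me3 peaks at SYCP1 formed a stretch of 99413 bp from 114834097 to 114933509 that took in the start, the upstream pseudogene NR1H5P and the non-coding gene LOC105378915 inside the record. Peaks covered 71.2% of that stretch. With peaks of q of 0.05 or below, the stretch that held the start was 67016 bp long. In successive steps of 10 kb from the start, cover was between 55.2% and 83.1% over the first 70 kb and between 10.4% and 32.1% over the last 40 kb examined. The strongest peak, 1438 bp at 6.93-fold, lay 39463 bp inside the gene, and 21 of the 167 peaks reached 5.01-fold, the 99th percentile of the whole H3K27me3 list. The nearest H3K4me3 peak to the start was 51221 bp away at 2.09-fold, and the nearest with q of 0.05 or below 73560 bp away. H3K27me3 thus ran from the upstream flank of SYCP1 through the gene and was sparser towards its 3′ end.

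SYCP2 encodes an axial element protein and lies on the minus strand at chr20:59863571-59933637. Its start was in an H3K4me3 peak of 1134 bp and 8.92-fold that covered 56.7% of the window. No H3K27me3 peak lay in the window or in the upstream 10 kb. From 2463 bp inside the gene, however, H3K27me3 peaks joined into a stretch of 48460 bp covered to 53.0%, and 69 peaks covered 38.5% of the record. Of the 69 peaks, 29 had q of 0.05 or below. These covered 23.9% of the record and gave a stretch of 26820 bp. By all peaks, cover over the record and flanks was 29.9%, a value reached by 1.58% of all genes. Cover stood at 50.1%, 54.4%, 74.96%, 46.7% and 29.0% over the first 5 steps of 10 kb and at 1.65% in the step after them. The strongest peak of this stretch was 2049 bp wide and 5.99-fold. H3K4me3 and H3K27me3 shared 0 bp here, so an H3K4me3 start and an H3K27me3 gene body lay side by side.

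SYCP3, the partner of SYCP2 in the axial element, is at chr12:101728648-101739462 on the minus strand. No peak of any mark lay in its record, whose 3′ end overlaps that of CHPT1, a choline phosphotransferase gene. The nearest H3K4me3 peak was 36497 bp from the start, and the nearest H3K27me3 peak, of 2.15-fold, was 18078 bp away. All 5 H3K79me2 peaks within the region touched CHPT1 or GNPTAB, and the widest, of 21129 bp and 3.10-fold, began at 20363 bp past the SYCP3 start and lay in CHPT1. The window at the SYCP3 start held 24 CpG, close to the median of all promoters, without a peak.

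DMC1 and STAG3 serve meiotic recombination and cohesion. DMC1 encodes the meiosis-specific recombinase and lies at chr22:38509147-38570183 on the minus strand. An H3K4me3 peak of 1695 bp and 13.7-fold covered 75.3% of its start window, and H3K79me2 covered 0% of the 5000 bp inward. H3K27me3 was limited to 2 peaks over 0.700% of the region, the wider of 369 bp and 3.46-fold. The stronger H3K4me3 peak of the region, 5361 bp and 18.9-fold, belonged to the start of DDX17, an RNA helicase gene beyond the 3′ end, together with an H3K79me2 peak of 21107 bp. Over the whole record of DMC1, peaks of H3K4me3 took up 0.831%, of H3K27me3 0.929% and of H3K79me2 0.944%.

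STAG3 encodes the meiotic cohesin subunit and lies at chr7:100177724-100219334 on the plus strand. Its outer start had H3K4me3 over 62.1% of the window from a peak of 1475 bp and 13.8-fold, and its inner start, at 100177918, over 52.4%. An H3K27me3 peak of 202 bp and 3.93-fold began 478 bp inside the gene and covered 10.1% of the window, under the threshold. In the whole region 9 H3K27me3 peaks covered 4.14%, a value reached by 17.96% of all genes. Somatic counterparts were read beside them: STAG1, STAG2, DDX3X, SMC1A and RAD21, chosen as relatives of STAG3, of DDX4 and of meiotic cohesin, had H3K4me3 and H3K79me2 in 5 of 5 and H3K27me3 in 0. STAG2, the somatic relative of STAG3, had H3K4me3 at 14.2-fold over 100% of the window and H3K79me2 over 100% of the inward window.

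The H3K4me3 peaks at SYCP2, DMC1, STAG3 and MAEL all held the start of a second gene on the other strand. The starts were 142 bp apart for SYCP2 and FAM217B, 317 bp for DMC1 and the non-coding gene LOC105373031, 343 bp for STAG3 and the glypican gene GPC2, and 42 bp for MAEL and ILDR2. Of 11098 protein-coding genes with a start inside an H3K4me3 peak, 37.5% shared the peak with a start of another gene and 35.1% with one on the other strand. The peaks reached 279 bp into SYCP2, 242 bp into STAG3, 506 bp into DMC1 and 775 bp into MAEL, and extended 854 to 1446 bp the other way. Over the 11098 genes the median reach into the gene was 2147 bp, and 9.70% of genes had a reach of 775 bp or less. Among the 3892 genes whose peak also held a start on the other strand, the median was 2303 bp and 5.27% had a reach of 775 bp or less. In each of the 4 germline genes over 65% of the peak lay outside the gene, whereas 36.1% of those 3892 genes had most of the peak outside. This measure was chosen after the peaks had been seen and is a description.

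**Figure D2:**
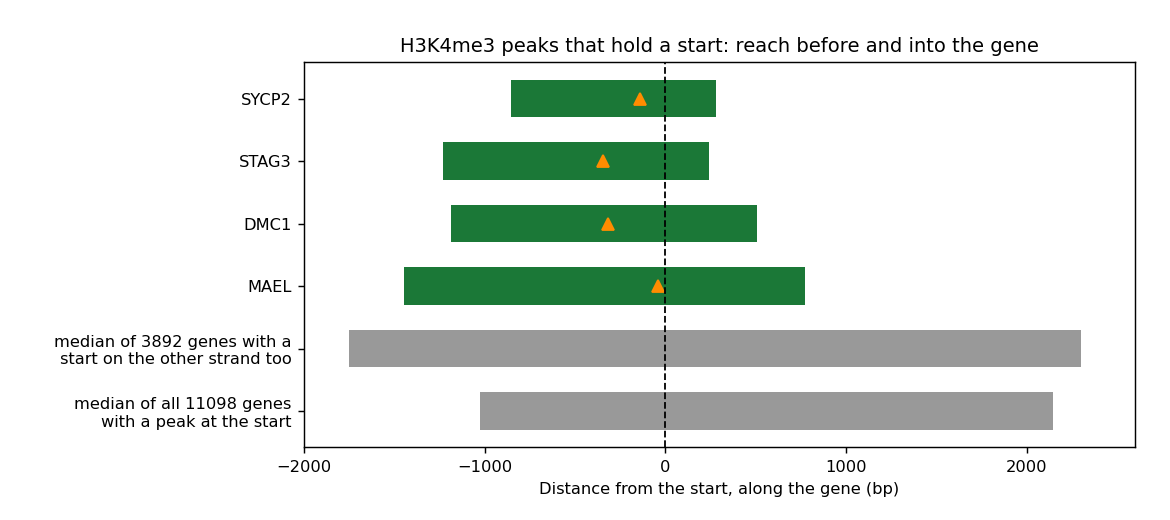
Extent of the H3K4me3 peak before (left) and into (right) each gene, in bp from the start (dashed line), for 4 germline genes (green) and as medians over all genes with such a peak (grey); orange triangles mark the start of the neighbour on the other strand. The peaks reach 242 to 775 bp into the germline genes, against a median of 2147 bp over 11098 genes.

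H3K79me2 lay on the neighbour's side in 1 of these pairs. Inward of the FAM217B start at 59933779 it covered 58.0% of the window at up to 2.75-fold, while inward of the SYCP2 start it covered 0%. GPC2, ILDR2 and LOC105373031 had 0% as well, so those 3 pairs had H3K4me3 without H3K79me2 on either side. The H3K79me2 at FAM217B came from a peak of 713 bp with q above 0.05 and from 1 of 3237 bp. The wider peak also lay almost wholly in PPP1R3D, a gene on the minus strand with H3K79me2 over 86.9% of its inward window. A separate H3K4me3 peak, of 5165 bp and 13.7-fold, held the PPP1R3D start and a second FAM217B start. To which of these starts the H3K79me2 belongs was not tested. Of all genes with H3K4me3 at a start, 74.4% had H3K79me2, against 0 of the 4 germline genes. Inside the records of all 10 genes there were 10 H3K79me2 peaks, in SYCP1, DMC1, STAG3 and TDRD1, between 150 and 793 bp wide. Of these, 7 were at most 200 bp wide and 1, in STAG3 at 2.79-fold, had q of 0.05 or below.

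Among the piRNA pathway genes, TDRD1 and MAEL had H3K4me3 at the upstream end of the record and none at an inner start. TDRD1 encodes a Tudor scaffold that binds methylated PIWI proteins and lies at chr10:114174874-114232666 on the plus strand. Both of its starts in the table, at 114179287 and 114179353, had 0% of H3K4me3 and of H3K27me3. The 5′ end of its record lay in an H3K4me3 peak of 4051 bp and 19.9-fold that covered 79.5% of the window there, ended 3823 bp before the outer start in the table and held the 2 starts of CCDC186 on the other strand. CCDC186 had H3K79me2 over up to 99.2% inward of its start, and TDRD1 had it over 3% inward of its own from 1 peak of 150 bp. The peak thus took in both the 5′ end of the TDRD1 record and the starts of CCDC186, and 2 weak H3K27me3 peaks covered 0.587% of the region.

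MAEL encodes a protein of the germ granule where piRNAs are made, and its record spans chr1:166975582-167022214. The outer start, 42 bp from that of ILDR2, had H3K4me3 over 88.8% of the window at 16.8-fold and H3K27me3 over 77.8% at up to 4.96-fold. The 2 marks shared 1933 bp, most of the H3K4me3 peak of 2222 bp. The inner start at 166989280 had 0% of each mark in its window, although H3K27me3 lay 1827 bp away. Over the region 56 H3K27me3 peaks covered 36.9%, a value reached by 0.946% of all genes, and 25 of the peaks had q of 0.05 or below. By steps of 10 kb, cover was 61.0% in the upstream flank, where ILDR2 lies, and between 26.8% and 50.5% over the first 40 kb of MAEL. All deposited peaks, joined, gave a stretch of 27990 bp that held the outer start of MAEL, and 1 of 25134 bp beyond its 3′ end. Joined peaks of q of 0.05 or below gave no stretch of 10000 bp or more at the start of MAEL, and 1 of 11463 bp beyond its 3′ end.

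DDX4, DAZL and SOHLH1 had no mark at a start in the table. DDX4, the VASA helicase that marks germ cells across animals, lies at chr5:55738061-55817157. Neither the start in the table nor the 5′ end of the record had a peak of any mark in its window. The record and flanks, 99097 bp, held 0 peaks of H3K4me3, 0 of H3K79me2 and 4 of H3K27me3, all with q above 0.05 and covering 0.948%. The nearest H3K4me3 peak, of 18.7-fold, was 24524 bp from the 5′ end of the record.

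DAZL encodes an RNA-binding regulator of translation in germ cells and lies at chr3:16586792-16605423 on the minus strand. Its 2 starts had 0% of every mark, with 29 and 33 CpG in their windows. In the gene body, from 4118 bp past the outer start, 17 H3K27me3 peaks covered 31.6% of the record, and 7 of them had q of 0.05 or below. The strongest was 4.07-fold and 221 bp wide. Joined across 3000 bp all deposited peaks formed a stretch of 15668 bp that ended beyond the 3′ end. With peaks of q of 0.05 or below, no stretch of 10000 bp or more was found. The region's cover of 16.2% was reached by 4.73% of all genes. The nearest H3K4me3 peak with q of 0.05 or below was 90501 bp from the outer start.

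SOHLH1 encodes a basic helix-loop-helix factor of spermatogonia and early oocytes and lies at chr9:135693407-135702112 on the minus strand. Its start in the table had 0% of each mark. The 5′ end of the record was inside a peak of H3K4me3, 835 bp wide, 4.97-fold and 2268 bp upstream of that start, which held the start of KCNT1, a potassium channel gene on the other strand. KCNT1 had 41.7% H3K4me3 at its start and 0% H3K79me2. Of H3K27me3, 1 peak of 2.69-fold lay in the region, beyond the 3′ end of the gene. TDRD1 and SOHLH1 count as marked by H3K4me3 if either end of the record replaces the start, or if its 5′ end is added to the starts. In each case 6 of the 10 were called, against 67.9% and 69.4% of all genes. The second of these settings was chosen after the data had been seen. Which start of TDRD1, SOHLH1 or DDX4 is used in germ cells cannot be told from the tables, so the counts of 4 marked by H3K4me3 and 5 unmarked rest on the starts listed.

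Over the whole record and 10 kb either side, at least 1 bp of H3K4me3 lay at 6 of the 10 genes, against 87.0% of all genes, and of H3K79me2 at 6, against 79.3%. H3K27me3 lay at 10, against 74.2%. At q of 0.05 or below the numbers were 6 for H3K4me3 (81.1% of all genes), 5 for H3K79me2 (59.6%) and 6 for H3K27me3 (31.9%). The 6 with H3K27me3 were SYCP1, SYCP2, DMC1, STAG3, DAZL and MAEL, and of these DMC1 had 1 peak. Over the 10 genes, median H3K4me3 cover came to 4.27%, beside 7.37% over all genes. Median H3K27me3 cover came to 2.54%, beside 0.614%, and median H3K79me2 cover to 0.814%, beside 14.5%. H3K27me3 cover over SYCP1, MAEL, SYCP2 and DAZL lay above the 95th percentile of all genes, 15.6%, while STAG3 and the other 5 genes had 4.14% or less. The 10 genes thus fell apart in H3K27me3 cover, between 0.582% at SOHLH1 and 51.7% at SYCP1.

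**Figure D3:**
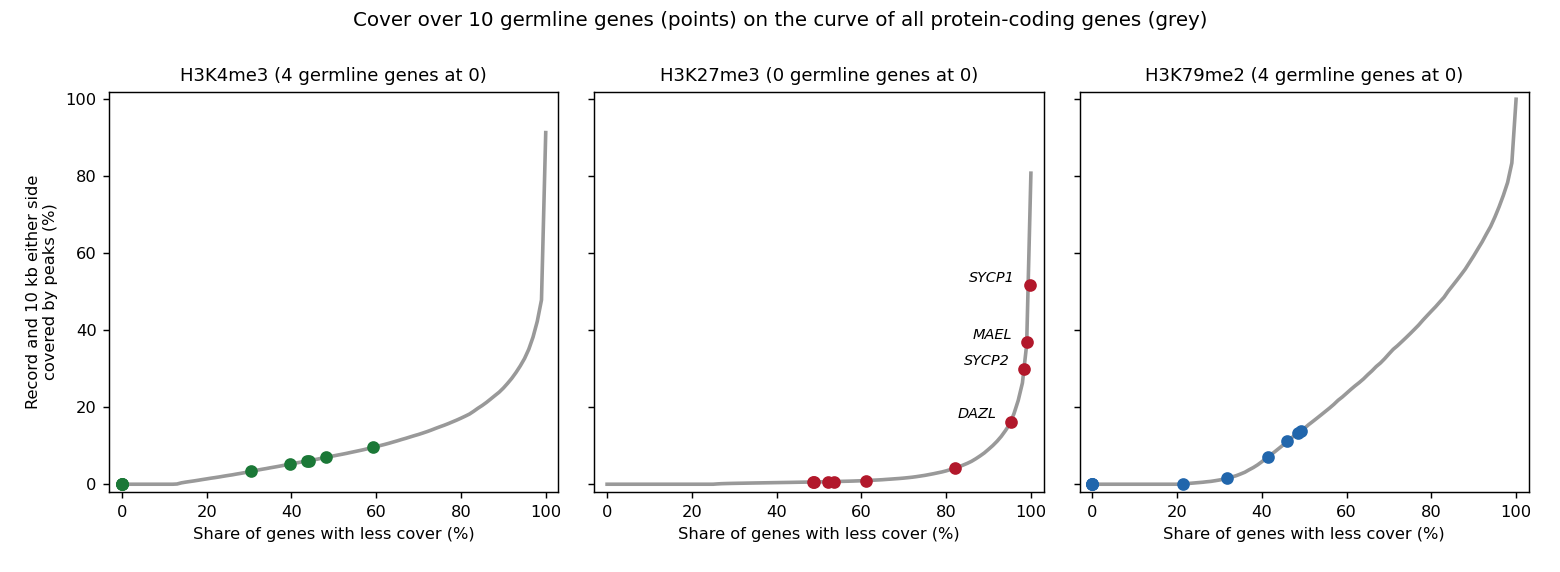
Percent of the record and 10 kb either side covered by peaks, as deposited (vertical axis), against the share of genes with less cover (horizontal axis), for 19974 protein-coding genes (grey curve) and the 10 germline genes (points; points at the same place overlap). SYCP1, MAEL, SYCP2 and DAZL stand at 51.7%, 36.9%, 29.9% and 16.2% for H3K27me3, and all points of H3K79me2 are at or below 13.9%.

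**Figure D4:**
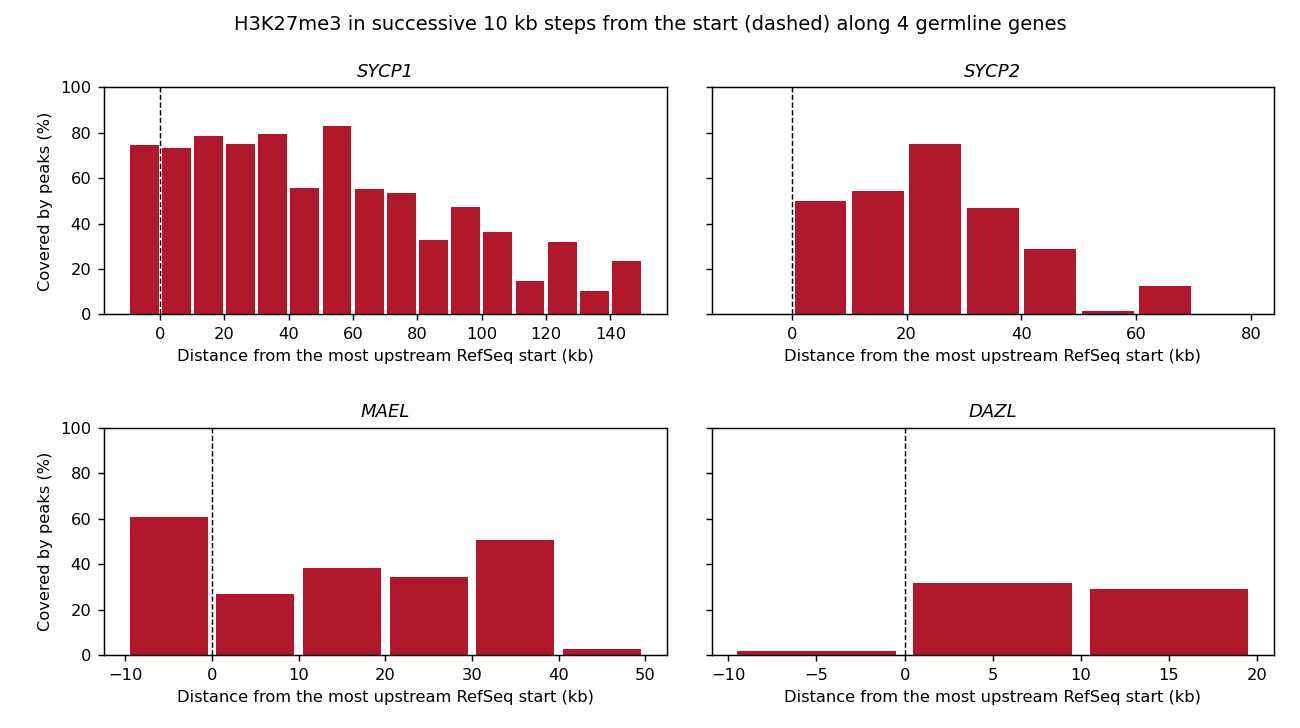
Percent of each successive 10 kb step covered by H3K27me3 peaks, by distance in kb from the most upstream RefSeq start (dashed line), for the 4 germline genes with the highest cover. Cover runs through the start of SYCP1 and MAEL, and begins inside the gene at SYCP2 and DAZL, where the upstream step has 0% and 2.06%.

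Wider lists of 61 germline genes were read the same way, all of which were found in the annotation. Of the 61, 23 had H3K4me3 at a start, 7 had H3K27me3, 7 had H3K79me2 and 36 had none of the calls, shares that can be read against the 68.6%, 8.23%, 52.0% and 26.7% of all genes. With peaks of q of 0.05 or below, H3K4me3 went from 23 to 20 (without TEX12, MEIOB and HFM1), H3K79me2 from 7 to 4 (without ZCWPW1, TDRD7 and PLD6), and H3K27me3 stayed at 7. For 9 of the 61, TEX12, TOP6BL, HSF2BP, PLD6 and TEX15 among them, the table gave no start and both record ends were read. Of the 5 further synaptonemal complex genes, SYCE3 (14.9-fold), SYCE2 (7.44-fold) and TEX12 (2.17-fold) had H3K4me3, C14orf39 had H3K27me3 over 95.4% of the window at 7.32-fold, and SYCE1 had no call. Of 25 genes of meiotic recombination and cohesin, 13 had H3K4me3, 3 had H3K27me3 (HFM1, REC114 and RAD21L1) and 5 had H3K79me2. The 5 were PSMC3IP, TOP6BL, MND1, MSH5 and ZCWPW1, with 100%, 87.96%, 85.5%, 43.1% and 25.7% of the inward window covered. PSMC3IP and MND1 encode partners that stimulate DMC1, and they had H3K4me3 at 15.6- and 12.7-fold, beside 13.7-fold at DMC1, which had no H3K79me2.

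Of 17 piRNA pathway genes, 5 had H3K4me3, 2 had H3K27me3 (TDRD5 and TEX15) and 2 had H3K79me2. TDRD7 and PLD6, a mitochondrial nuclease gene, had H3K4me3 with H3K79me2 (86.4% and 45.6% of the inward window, from peaks of 2.43- and 2.45-fold), of which the H3K79me2 calls did not hold at q of 0.05. TDRKH had H3K4me3 over 100% of the window at 21.4-fold with 0% H3K79me2 inward of the start. Of 14 genes of germ cell RNA binding and transcription, 2 had H3K4me3, NANOS3 (6.66-fold) and FIGLA (3.55-fold), 1 had H3K27me3, NANOS3, and 0 had H3K79me2. BOLL, a relative of DAZL, and SOHLH2, the partner of SOHLH1, had 0% of each mark at the start, as did STRA8 and MEIOSIN, which drive entry into meiosis. The windows of 52 of the 61 genes with a start in the table had a median of 26 CpG, the same as the 10 genes. TTCCCGC was found in 17 of the 52 (10.5% of all genes), TCCCGC in 29 (40.7%) and CACGTG in 7 (10.9%).

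Genes of the machinery known to silence germline promoters mostly had H3K4me3 with H3K79me2. H3K4me3 was called at 17 of 18 such genes, H3K79me2 at 16 and H3K27me3 at 0. E2F6 had H3K4me3 at 12.7-fold and H3K79me2 over 95.3% of the inward window, MGA had 10.2-fold and 100%, and the DNA methyltransferase gene DNMT1 had 20.8-fold and 100%. The exceptions were DNMT3B, with 0% of each mark at its start in the table, and RING1, with H3K79me2 over 9.03%. No binding of these factors and no DNA methylation was measured, and their part in the patterns above was not tested.

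**Figure D5:**
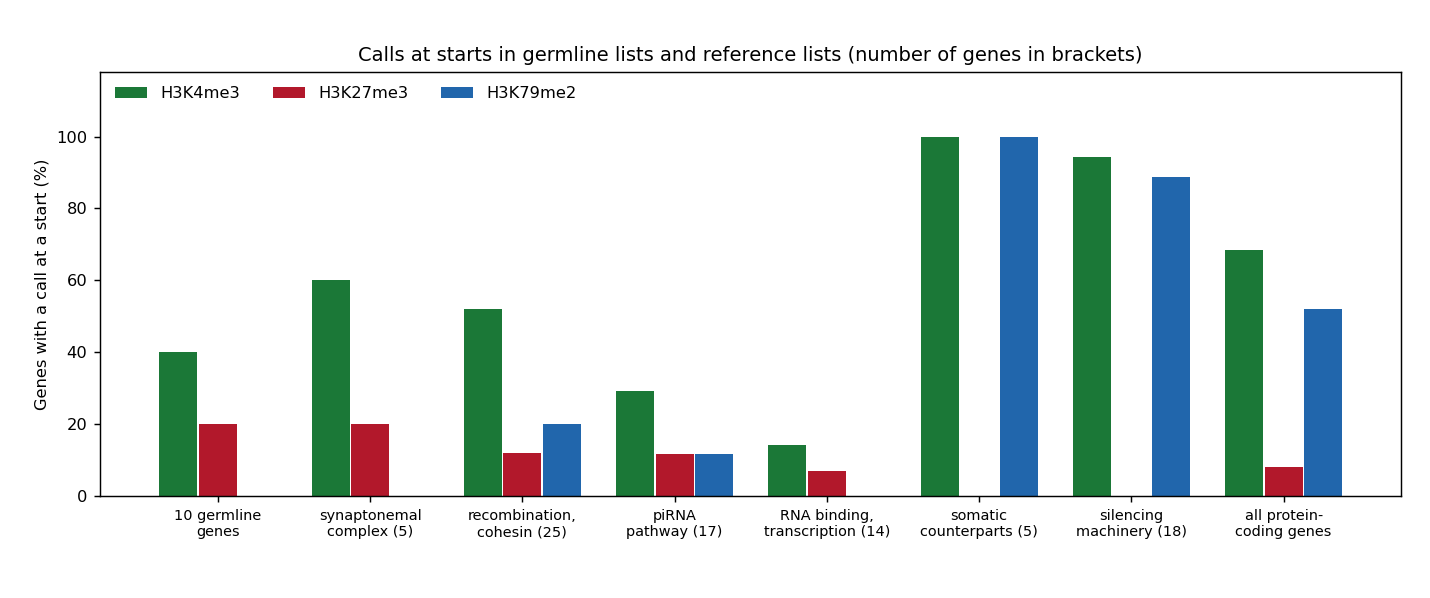
Percent of genes called at a start for H3K4me3 (green), H3K27me3 (red) and H3K79me2 (blue) in the 10 genes, 4 wider germline lists, 2 reference lists and all protein-coding genes. H3K4me3 is called at 4 of the 10, 23 of the 61 wider germline genes, 5 of 5 somatic counterparts and 17 of 18 silencing genes.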

How the data were processed

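Peak lists of H3K4me3, H3K27me3 and H3K79me2 from MCF10A were used, 1 library each, and the input library has no list analysed here. The submitters' processing notes name build hg38, the aligner Bowtie2 (2.3.1) and the peak caller MACS2 (2.1.1), and a p of 0.05 stands in the name of each deposited peak. Each deposited peak has a fold, a ratio to background, and −log10 p and −log10 q, all from the authors' caller. Whether the input served as control is not stated in the labels.

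Cover was the share of a window in merged peaks, computed with Python 3.11.15, pandas 2.3.3 and NumPy 2.4.6, and tested on simulated data. Starts came from the RefSeq promoter table (GRCh38.p14) for 15812 protein-coding genes, and both record ends served for the other 4162. Of several starts, the best covered counted. H3K27me3 stretches joined peaks across up to 3000 bp, at least 10000 bp long. All 10 genes, neighbours whose start shares a peak, and of each list up to 4 marked genes per mark with exceptions were to be named; BOLL, SOHLH2, STRA8, MEIOSIN, BRME1, HSF2BP, STAG2, E2F6, MGA and DNMT1 were named after their values were seen. Of the somatic counterparts, 1 gene is not reported here. Genes and lists were chosen with earlier results of these data known.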

Additional observations from a re-analysis of the deposited data

How the results depend on the processing

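The 4 genes with H3K4me3 at a start stayed at 4 under stricter peaks, other covered shares and other windows. At either end of the record 6 were called, against 67.9% of all genes. The 2 with H3K27me3 fell to 0 with −log10 q of at least 5 and to 0 with fold of at least 5, where 1.22% and 1.75% of all genes had the mark. H3K79me2 went from 0 to 1 (TDRD1) when 1 bp of cover sufficed, where 59.0% of all genes were called. Genes with no mark went from 5 to 3 at either end of the record and to 3 with the 5′ end of the record added. In both settings 25.9% of all genes had no mark, beside 26.7% at the starts listed. Over record and flanks, the 10 with H3K27me3 (74.2% of all genes) became 6 at q of 0.05 or below (31.9%). They became 2 with −log10 q of at least 5 (3.99%) and 3 with fold of at least 5 (6.89%). The 6 with H3K79me2 became 1 and 0 under the last 2 settings, where 18.9% and 5.71% of all genes had a peak. The cause of these changes was not tested beyond the fewer peaks or other windows used. No paired analysis was possible because each mark has 1 library. Read depth is unknown, so an empty window says only that no peak was called there.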

Other observations

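In the wider germline lists, 5 of the 61 genes had calls of both H3K4me3 and H3K27me3, against 4.43% of all genes. They were HFM1, RAD21L1, TDRD5, TEX15 and NANOS3. The H3K4me3 call of HFM1, at 2.01-fold, did not hold at q of 0.05. TDRD5 and NANOS3 have several starts, and TEX15 was read at both record ends, with the best covered taken for each mark, so at these 3 the marks need not share a start. At TEX15, a gene of piRNA-directed silencing, H3K27me3 covered 69.3% of the window at 8.47-fold and H3K4me3 36.5% at 3.85-fold. At the meiotic cohesin gene RAD21L1 the shares were 41.0% at 5.997-fold and 87.6% at 10.8-fold. At NANOS3, a translational repressor of early germ cells, they were 74.0% at 5.76-fold and 57.6% at 6.66-fold. None of these 5 had H3K79me2 called. Among genes with H3K4me3 and neither other mark, BRME1 and HSF2BP, whose products work with BRCA2 in meiosis, had 19.1- and 18.1-fold peaks, with 5.84% and 7.64% of the inward window in H3K79me2, under the 25% of a call.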
